A study of Mus musculus with 9 samples.

Results

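The DNA replication and nucleotide synthesis genes described here are 41 listed genes that copy the genome or make its building blocks, and 40 of them had a probe set on the array, out of 17097 genes measured. Each gene was represented by its probe set with the highest mean over all 9 arrays, a choice that used no difference between groups. All 40 lay above the filter that left out the 30% of genes with the lowest mean signal, as did 11967 genes in all. Chaf1a, the large subunit of the histone chaperone CAF-1, was not analysed here.

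Per the labels, RNA came from whole bladders of female C57BL/6J mice. In the tumour groups the bladder was pretreated with poly-L-lysine and then received MB49 cells, a mouse bladder carcinoma line, on day 0. The agent alpha1-oleate pairs a peptide with the fatty acid oleate, and it was put into tumour bladders at 1.7, 8.5 or 17 mM 5 times between day 3 and day 11, sham tumour bladders received PBS, and these bladders were taken on day 12. For mice labelled healthy the labels give no cancer model, and they received 17 mM alpha1-oleate 24 h or 7 d before sampling, or PBS. Experiment 1 holds 1 array each of the sham tumour, the 3 doses in tumours and healthy PBS bladder, and experiment 2 holds 1 each of the array labelled healthy 24 h, healthy 7 d, sham tumour and healthy PBS. Only the sham tumour and healthy PBS groups therefore have 2 arrays. The labels do not say that arrays came from separate animals, so p-values measure the spread between these arrays, which may be technical, and for single-array groups they borrow that of the PBS groups.

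Replication starts at origins marked by the origin recognition complex, where Cdc6 and Cdt1 load the ring-shaped MCM helicase. Cdc45 and the GINS complex turn the ring into an active helicase, polymerase alpha with primase begins each strand, and polymerases epsilon and delta extend it on the PCNA clamp that the RFC complex loads. Ribonucleotide reductase, thymidine kinase and thymidylate synthase supply deoxynucleotides, and many of these genes are transcribed in late G1 and S phase under E2F factors. The urothelium that lines the adult bladder divides rarely, and MCM5 protein in urine has been studied as a marker of bladder cancer in people.

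Values are deposited log2 RMA signals, and a difference of 1 is a doubling of signal. The experiments had been normalized apart, so differences were fitted with limma with the experiment as a block, and a gene was called at a Benjamini-Hochberg adjusted p under 0.05 over all 11967 genes. Fitted differences use both sham or both healthy arrays and so depart slightly from single-array subtraction. The tissue makeup differed between arrays. The 6 uroplakin and keratin markers of urothelium averaged 7.67 and 7.02 log2 in sham tumours, against 11.2 and 10.9 in healthy bladders, and the 3 neutrophil markers averaged 9.31 and 8.20 in sham tumours, against 4.40 and 3.80 in healthy bladders. The array labelled healthy 24 h read 10.2 for urothelium and 6.72 for neutrophils, which lies between the sham tumour and healthy arrays of its own experiment. Its 4 macrophage markers averaged 8.22, against 8.78 in the sham tumour and 5.90 in the healthy bladder. Its 5 liver markers averaged 7.13, against 4.84 in the healthy bladder, and the same markers averaged 6.65 at 8.5 mM and 7.77 at 17 mM in tumours, against 3.99 in the sham tumour of experiment 1. The 3 kidney markers measured averaged between 3.80 and 4.92 on the other 7 arrays, against 7.02 and 6.67 on the healthy PBS arrays. The array labelled healthy 24 h thus read unlike the healthy PBS bladder in markers of several cell types, and whether its label is right, or whether tissue other than bladder was carried along on any array, was not tested. The part of these makeups in the results below was not tested either, and in whole bladder fewer replicating cells and less RNA per cell cannot be told apart.

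Promoters are shown because the members moved together across the tumour and the doses. RefSeq promoters (build GRCm38.p6, 250 bases before to 50 after the start) were matched for 33 of the 40 genes. The letters of an E2F site were searched on both strands as TTTCCCGC, TTTCGCGC, TTTGCCGC and TTTGGCGC. They were found in 13 of the 33 promoters (39.4%), against 2.6% of the 27025 genes in the table, where a gene counts once if any of its windows matched. A CHR element, TTTGAA or TTCGAA, was present in 6 of the 33 (18.2%), against 21.7% of the table, and CCAAT in 19 (57.6%), against 41.1%. The 250 bases before the start are printed for 5 genes, from the MCM helicase (Mcm5, Mcm6), licensing (Cdc6, Orc1) and chromatin groups (Uhrf1), with the E2F letters of either strand in capitals. Cdc6 lies at chr11:98907901-98908150, plus strand, Mcm5 at chr8:75109259-75109508, plus strand, Mcm6 at chr1:128359706-128359955, minus strand, Orc1 at chr4:108579204-108579453, plus strand, and Uhrf1 at chr17:56304063-56304312, plus strand. Overlapping matches on opposite strands merge into 1 run in Mcm5 and Mcm6. A match is a run of letters and not a measured site.
Cdc6: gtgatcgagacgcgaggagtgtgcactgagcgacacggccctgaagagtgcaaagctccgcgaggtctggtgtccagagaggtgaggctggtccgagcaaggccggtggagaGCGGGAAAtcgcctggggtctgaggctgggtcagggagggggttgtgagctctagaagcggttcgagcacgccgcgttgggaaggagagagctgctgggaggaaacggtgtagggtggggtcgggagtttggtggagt
Mcm5: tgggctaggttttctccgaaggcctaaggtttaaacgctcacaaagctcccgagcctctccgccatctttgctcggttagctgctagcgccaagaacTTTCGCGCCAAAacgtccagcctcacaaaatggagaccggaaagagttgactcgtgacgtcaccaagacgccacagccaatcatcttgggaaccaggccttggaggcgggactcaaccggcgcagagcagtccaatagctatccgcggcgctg
Mcm6: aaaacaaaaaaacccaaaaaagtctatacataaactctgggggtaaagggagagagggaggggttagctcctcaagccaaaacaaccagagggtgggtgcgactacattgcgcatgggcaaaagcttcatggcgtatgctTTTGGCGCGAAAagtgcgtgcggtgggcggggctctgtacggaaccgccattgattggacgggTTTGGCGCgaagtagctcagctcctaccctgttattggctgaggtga
Orc1: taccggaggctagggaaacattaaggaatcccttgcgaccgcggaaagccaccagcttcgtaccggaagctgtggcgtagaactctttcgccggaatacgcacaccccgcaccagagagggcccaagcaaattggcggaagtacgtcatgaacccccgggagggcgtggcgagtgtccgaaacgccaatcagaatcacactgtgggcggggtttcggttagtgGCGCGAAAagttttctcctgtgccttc
Uhrf1: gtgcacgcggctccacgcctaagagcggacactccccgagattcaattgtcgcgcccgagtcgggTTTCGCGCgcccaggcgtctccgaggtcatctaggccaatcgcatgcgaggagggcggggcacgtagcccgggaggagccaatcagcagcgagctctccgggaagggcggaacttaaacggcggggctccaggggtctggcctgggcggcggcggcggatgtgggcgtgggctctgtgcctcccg

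Sham tumour bladders carried much more transcript of nearly every replication gene than healthy bladders. Of the 40 genes 38 rose and 0 fell, beside 28.7% of all genes tested that rose and 57.4% called in either direction. The median log2 difference was 2.21, beside -0.005 over all genes, and 39 of 40 were higher in the sham tumour within both experiments, which held for 43.6% of all genes. Medians within experiment 1 and experiment 2 were 2.46 and 1.95. The heat map shows the differences of every gene by array.

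**Figure D1:**
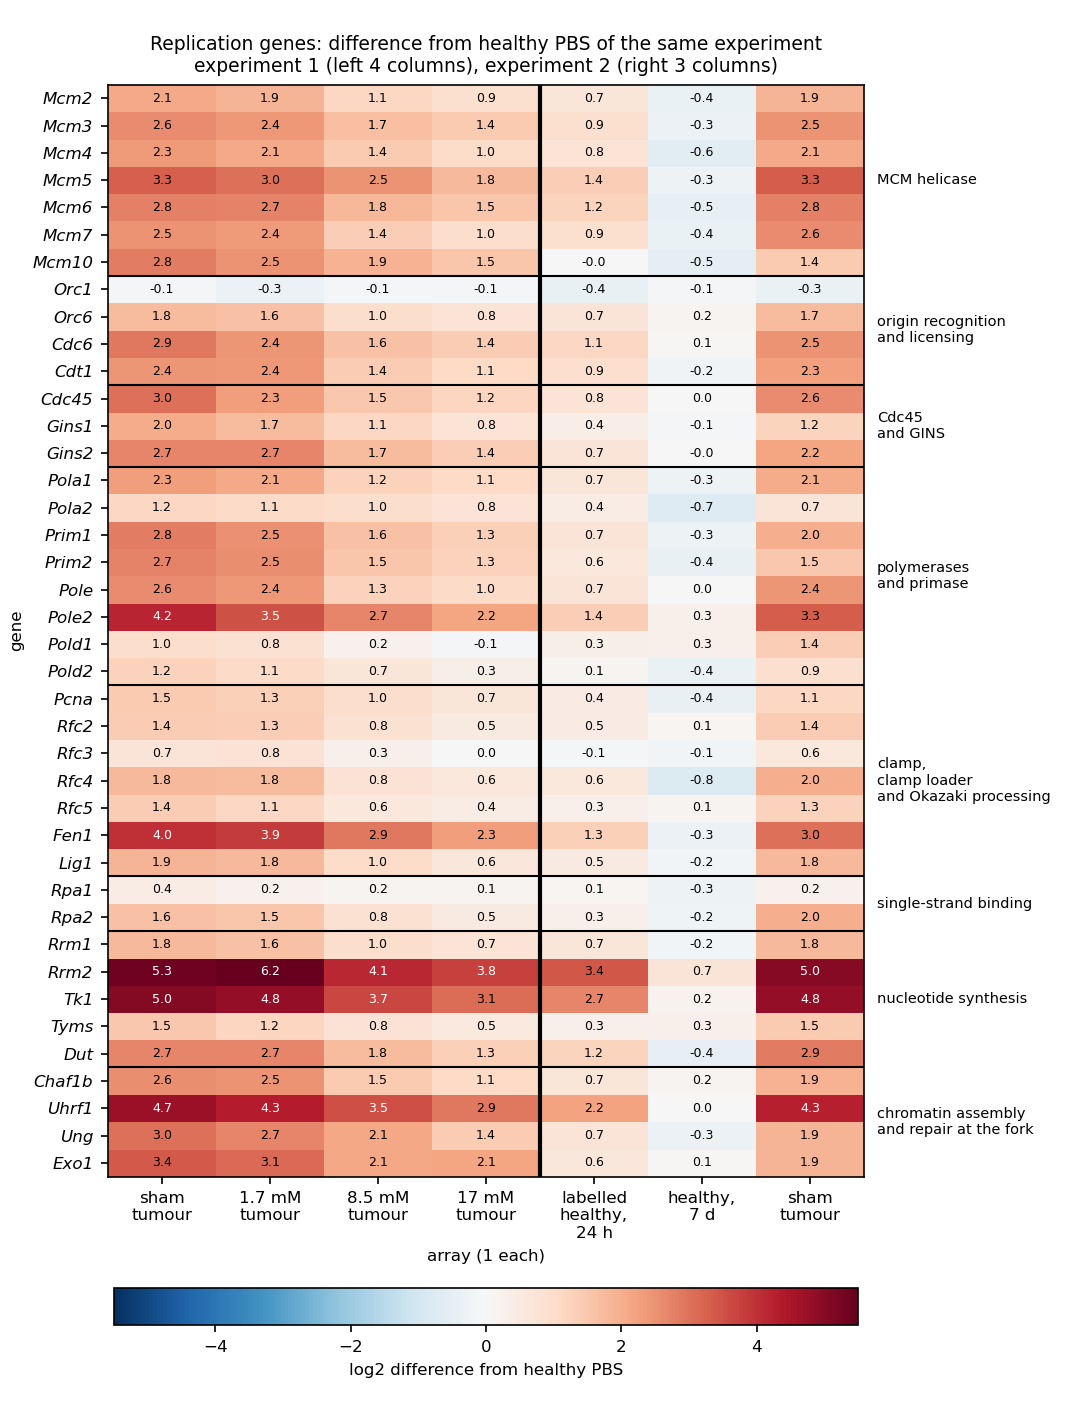
Log2 difference of each replication gene (rows, grouped by role) from the healthy PBS array of the same experiment, 1 array per column, with red for higher and blue for lower. Sham tumours (first and last columns) are red for all genes but Orc1, the colours fade from 1.7 to 17 mM, and the healthy 7 d column stays pale.

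All 7 genes of the MCM group rose, with a median of 2.52. Mcm5, a subunit of the helicase ring, read 8.53 and 7.29 log2 in sham tumours, against 5.23 and 3.98 in healthy bladders, a difference of 3.31 (SE 0.09, limma adjusted p = 0.00235). Mcm2, another ring subunit, read 8.57 and 8.32 in sham tumours, against 6.49 and 6.46 in healthy bladders, a difference of 1.97 (SE 0.11, limma adjusted p = 0.00271). Both tumour arrays stood clear of both healthy arrays in each gene, and the healthy Mcm2 signals were almost equal. Mcm10, which helps to activate the loaded helicase, read 7.13 and 6.47 in sham tumours, against 4.30 and 5.03 in healthy bladders, a difference of 2.14 (SE 0.40, limma adjusted p = 0.0223). Its arrays did not overlap either, but the difference was 2.83 in experiment 1 and 1.44 in experiment 2, so its error was the widest of the group. Mcm6, Mcm7, Mcm3 and Mcm4 rose by 2.77, 2.53, 2.52 and 2.22.

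Of the 4 origin and licensing genes 3 rose. Cdc6, the loader of the helicase, read 7.67 and 6.88 log2 in sham tumours, against 4.79 and 4.43 in healthy bladders, a difference of 2.67 (SE 0.15, limma adjusted p = 0.00279). Cdt1, its partner in loading, rose by 2.35, and Orc6, a subunit of the origin recognition complex, by 1.74. Orc1, the largest subunit of that complex, stood apart: it read 4.88 and 4.79 in sham tumours, against 4.94 and 5.14 in healthy bladders, a difference of -0.21 (SE 0.12, limma adjusted p = 0.228). Its tumour arrays lay a little below its healthy arrays in both experiments. The other probe set of Orc1, whose mean of 3.75 lay under the filter level of 4.16, was higher in the tumour by 1.75 and 0.93 within the experiments, so the probe sets disagree and the level of Orc1 is uncertain. Its promoter printed above carries the E2F letters, like those of Cdc6 and Cdt1.

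Cdc45 and both GINS genes among the 40 rose. Cdc45, which joins the MCM ring at the fork, read 7.39 and 6.40 log2 in sham tumours, against 4.38 and 3.82 in healthy bladders, a difference of 2.80 (SE 0.15, limma adjusted p = 0.00266). Gins1, a GINS subunit, read 7.31 and 6.09 in sham tumours, against 5.29 and 4.88 in healthy bladders, a difference of 1.62 (SE 0.24, limma adjusted p = 0.014), and Gins2 rose by 2.45. Both sham tumours were above both healthy bladders for Cdc45 and for Gins1.

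The 8 polymerase and primase genes all rose, but unevenly within a complex. Pole2, the second subunit of polymerase epsilon, read 8.17 and 7.27 log2 in sham tumours, against 3.97 and 3.92 in healthy bladders, a difference of 3.78 (SE 0.25, limma adjusted p = 0.00348). Pole, the catalytic subunit of the same polymerase, rose by 2.52. Pola1, the catalytic subunit of polymerase alpha, rose by 2.19, and Prim1 and Prim2, the primase subunits, by 2.40 and 2.10. Smaller increases were found for Pola2, the regulatory subunit of polymerase alpha (0.94), and for Pold1 and Pold2, subunits of polymerase delta (1.17 and 1.10). One further probe set of Prim2 above the filter level showed tumour differences of only 0.09 and 0.15, while another showed 2.27 and 2.46.

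The clamp, its loader and the enzymes that finish the lagging strand rose in 7 of 7 cases, with a lower median of 1.40. Pcna, the clamp, had high signal on every array, at 11.1 and 10.5 log2 in sham tumours, against 9.68 and 9.38 in healthy bladders, and the difference was 1.29 (SE 0.13, limma adjusted p = 0.00631). Rfc4, a clamp loader subunit, read 8.25 and 7.32 in sham tumours, against 6.46 and 5.31 in healthy bladders, a difference of 1.90 (SE 0.11, limma adjusted p = 0.00284). For Pcna and Rfc4 alike the lowest tumour array exceeded the highest healthy array. Rfc2, Rfc5 and Rfc3, 3 more loader subunits, rose by 1.40, 1.34 and 0.65, the last being the smallest increase called among all members. Fen1, the nuclease that trims Okazaki flaps, rose by 3.51, and Lig1, the ligase that seals them, by 1.83. Of the single-strand binding proteins Rpa2 rose by 1.79, while Rpa1, the largest subunit, read 10.1 and 9.54 in sham tumours, against 9.67 and 9.30 in healthy bladders, a difference of 0.32 (SE 0.10, limma adjusted p = 0.0689) that was not called. Within each experiment the Rpa1 tumour array was higher, by 0.39 and 0.24. Only across the experiments, which were normalized apart, did a tumour array (experiment 2) lie below a healthy array (experiment 1).

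All 5 nucleotide synthesis genes rose, with a median of 2.78, and hold the 2 largest differences of the 40. Rrm2, the small subunit of ribonucleotide reductase, read 9.84 and 8.96 log2 in sham tumours, against 4.50 and 3.94 in healthy bladders, a difference of 5.18 (SE 0.12, limma adjusted p = 0.00235). Tk1, the thymidine kinase of S phase, read 9.18 and 8.56 in sham tumours, against 4.15 and 3.72 in healthy bladders, a difference of 4.94 (SE 0.10, limma adjusted p = 0.00235). Every tumour array of these genes lay far above both healthy arrays. Rrm1, the large reductase subunit, rose by 1.79, Tyms, thymidylate synthase, by 1.48, and Dut, which removes dUTP, by 2.78.

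All 4 measured genes of chromatin assembly and repair at the fork rose. Uhrf1, which brings the maintenance DNA methyltransferase to newly copied DNA, read 9.28 and 8.11 log2 in sham tumours, against 4.54 and 3.82 in healthy bladders, a difference of 4.52 (SE 0.15, limma adjusted p = 0.00235). The tumour and healthy arrays did not overlap. Exo1, an exonuclease of mismatch repair, rose by 2.63, Ung, the uracil-DNA glycosylase, by 2.46, and Chaf1b, a CAF-1 subunit, by 2.24.

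Genes of the same pathways outside the 40 moved less uniformly. Over all genes tested 28.7% rose and 28.7% fell, and the counts of other deoxynucleotide enzymes below lie near these shares. Tk2 and Rrm2b, described further after values were seen, moved opposite to Tk1 and Rrm2. Among 31 other replication factors, which include the remaining GINS genes Gins3 (called, 0.71) and Gins4 (not called, 0.12), 21 rose and 0 fell (median 1.18), led by Dbf4, the activator of the Cdc7 kinase (3.43), Gmnn, the inhibitor of Cdt1 (2.86), Clspn, a checkpoint adaptor (2.80), and Cdc7, the kinase that fires origins (2.59). Of 8 other deoxynucleotide enzymes 2 rose, Dck, the deoxycytidine kinase (3.05), and Samhd1, a dNTP hydrolase (1.56), and 3 fell. Those were Tk2, the mitochondrial thymidine kinase (-1.54), Rrm2b, the reductase subunit used outside S phase (-1.05), and Dguok, the mitochondrial deoxyguanosine kinase (-0.63). Tk2 read 6.74 and 5.95 log2 in sham tumours, against 8.26 and 7.51 in healthy bladders (SE 0.09, limma adjusted p = 0.00292), and Rrm2b read 6.81 and 6.53 in sham tumours, against 7.81 and 7.63 in healthy bladders (limma adjusted p = 0.00503). Within each experiment these were thus lower in the tumour where Tk1 and Rrm2 were higher. Of 15 genes of de novo purine and pyrimidine synthesis 10 rose, led by Gmps (1.45), Adss (1.28), Gart (1.23) and Cad (1.20), and 1 fell, Ctps2 (-0.88). Of 21 E2F and G1/S regulators 17 rose, led by Ccna2, cyclin A2 (5.02), E2f8 (4.31), Ccne2, cyclin E2 (3.10), and E2f7 (2.75), and 2 fell, the cell cycle inhibitor Cdkn1c (-1.40) and the retinoblastoma relative Rbl2 (-0.54). Beside these counts, 6 of 6 urothelial and 4 of 4 smooth muscle markers fell, and 3 of 3 neutrophil and 4 of 4 macrophage markers rose.

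In treated tumours the signal of most members was lower than in sham tumours, and the more so the higher the dose. In experiment 1, sham exceeded 1.7 mM, 1.7 mM exceeded 8.5 mM and 8.5 mM exceeded 17 mM in 36 of 40 genes (90%), an order found in 21.2% of all genes. The exceptions were Orc1, Rfc3, Rrm2 and Exo1. In 35 of the 40 the 17 mM array was also above the healthy array, beside 15.8% of all genes. Every step was lower in nearly all members: 1.7 mM lay below sham in 38, 8.5 mM below 1.7 mM in 39, and 17 mM below 8.5 mM in 39, beside 50.3%, 53.3% and 47.5% of all genes. Each dose is 1 array, so no dose has a replicate of its own.

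**Figure D2:**
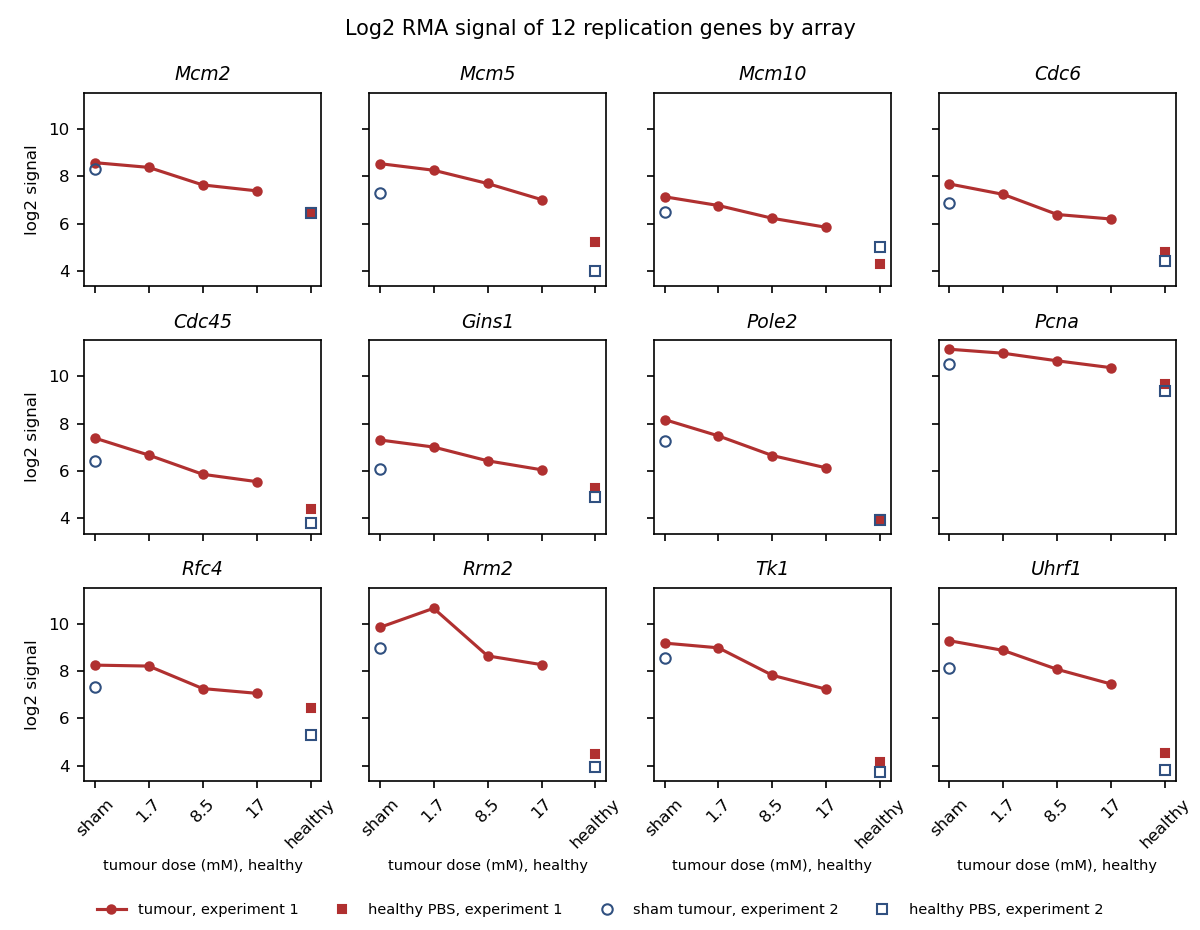
Log2 signal of 12 replication genes (panels) in tumours of experiment 1 by dose (filled circles, joined), with healthy PBS (squares) and the arrays of experiment 2 (open symbols), 1 array per point. From sham to 17 mM the joined points go down in every panel apart from the higher 1.7 mM point of Rrm2, and at 17 mM each stays above the healthy array of experiment 1.

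At 17 mM, 28 of the 40 genes fell against sham tumours and 0 rose, beside 10.7% of all genes that fell, 15.7% that rose and 26.3% called in either direction. The median was -1.20, beside -0.045 over all genes, and it was -1.26 within experiment 1. The counts rest on the block: without it 2 of the 40 fell, with 121 of all genes. With 1 PBS array left out as well, few or none of the member calls were left, and calls over all genes dropped too. Without the sham tumour of experiment 1 the all-gene median was 0.44, against -0.045 in the main fit. Counts of calls in each group were 6 of 7 for the MCM genes, 3 of 4 for licensing, 2 of 3 for Cdc45 and GINS, 5 of 8 for the polymerases, 5 of 7 for the clamp group, 1 of 2 for RPA, 5 of 5 for nucleotide synthesis and 1 of 4 for chromatin and repair.

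Tk1 had the largest decrease, reading 9.18 log2 in the sham tumour of experiment 1, 8.98 at 1.7 mM, 7.82 at 8.5 mM and 7.23 at 17 mM, and the 17 mM difference was -1.90 (SE 0.14, limma adjusted p = 0.0157). Pole2 went down in the same order with 8.17, 7.48, 6.65 and 6.13, and the 17 mM difference was -1.83 (SE 0.33, limma adjusted p = 0.0427). Cdc45 read 7.39, 6.67, 5.86 and 5.55 at these doses and differed by -1.73 at 17 mM (SE 0.20, limma adjusted p = 0.0217). All 3 lost more than 1 log2 unit between the sham and 17 mM arrays, and the 17 mM array lay below both sham arrays.

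Uhrf1 read 9.28 log2 in the sham tumour, 8.87 at 1.7 mM, 8.07 at 8.5 mM and 7.45 at 17 mM, a 17 mM difference of -1.72 (SE 0.20, limma adjusted p = 0.0226). Rrm2 read 9.84, 10.7, 8.64 and 8.27 in the same order, a 17 mM difference of -1.49 (SE 0.17, limma adjusted p = 0.0214). The 1.7 mM array of Rrm2 was thus its highest. Mcm5 read 8.53, 8.25, 7.69 and 7.01, a 17 mM difference of -1.52 (SE 0.12, limma adjusted p = 0.0159), and Mcm2 read 8.57, 8.37, 7.63 and 7.38, a difference of -1.14 (SE 0.14, limma adjusted p = 0.0245). Their 17 mM arrays were below both sham arrays and above both healthy arrays.

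Cdc6 read 7.67 log2 in the sham tumour, 7.23 at 1.7 mM, 6.38 at 8.5 mM and 6.19 at 17 mM, a 17 mM difference of -1.37 (SE 0.20, limma adjusted p = 0.0294). Rfc4 read 8.25, 8.21, 7.26 and 7.06 in the same order, a 17 mM difference of -1.25 (SE 0.14, limma adjusted p = 0.0217). For Rfc4 most of the step lay between 1.7 and 8.5 mM. The other genes called had differences between -1.53 (Mcm7) and -0.66 (Rfc3).

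The 12 genes not called at 17 mM were Mcm10, Orc1, Gins1, Pola2, Prim1, Prim2, Pcna, Fen1, Rpa1, Chaf1b, Ung and Exo1. Mcm10 read 7.13, 6.76, 6.22 and 5.84 log2 from sham to 17 mM, and its 17 mM difference of -0.94 had an SE of 0.52 (limma adjusted p = 0.264). Gins1 read 7.31, 7.01, 6.43 and 6.05, a 17 mM difference of -1.06 (SE 0.32, limma adjusted p = 0.101), and Pcna read 11.1, 11.0, 10.7 and 10.4, a difference of -0.70 (SE 0.17, limma adjusted p = 0.0695). These 3 stood in the same order across the doses as the called genes other than Rfc3 and Rrm2. Fen1, Chaf1b and Ung had values of -1.46, -1.33 and -1.35, as large as those of called genes. Rpa1 read 10.1, 9.92, 9.82 and 9.80, a 17 mM difference of -0.22. Orc1 read 4.88, 4.61, 4.84 and 4.83, a difference of 0.02 (SE 0.16, limma adjusted p = 0.929), the highest of the 40.

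**Figure D3:**
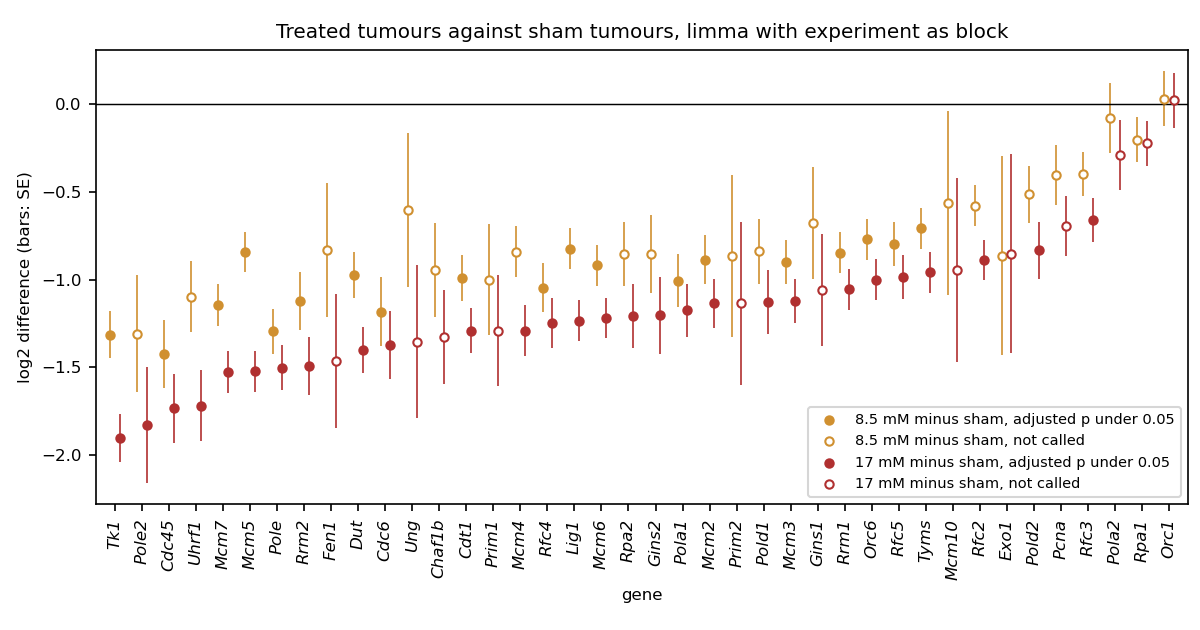
Fitted log2 difference from sham tumours at 8.5 mM (yellow) and 17 mM (red) for each replication gene, ordered by the 17 mM value, with SE bars and filled points for adjusted p under 0.05. Values at 17 mM run from -1.90 for Tk1 to 0.02 for Orc1, and nearly all 8.5 mM points lie between the 17 mM point and 0.

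At 8.5 mM, 19 genes fell and 0 rose against sham tumours, beside 4.75% of all genes that fell and 15.9% called in either direction, with a median of -0.85 and -0.92 within experiment 1. Cdc45 had the lowest value, -1.42 (SE 0.20, limma adjusted p = 0.0374), followed by Tk1 at -1.31 (SE 0.14, limma adjusted p = 0.0290), and Orc1 the highest at 0.03. All 5 nucleotide synthesis genes and 5 of 7 MCM genes were among the 19. Without the block 0 of the 40 fell, beside 41 of all 11967. In the plot of differences by dose, 17 mM lies below 8.5 mM for nearly every gene, but in the direct contrast of 17 mM with 8.5 mM, added after values were seen, limma called 0 of the 40 and 0 of all genes, while 4 of the 40 and 338 of all 11967 had an unadjusted p under 0.05. The median there was -0.30.

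At 1.7 mM limma called 0 of the 40 genes and 0 of all genes, with 2 of the 40 and 1595 of all 11967 at an unadjusted p under 0.05. The median was -0.10, and the values ran from -0.61 for Cdc45 (SE 0.20, limma adjusted p = 0.370) to 0.89 for Rrm2 (SE 0.17, limma adjusted p = 0.270). Rrm2 was thus the one member with a high value at this dose, while Rrm1, the partner subunit, read -0.21 and Tk1 read -0.15. With the 3 doses in mM as 1 slope over 5 tumour arrays, limma called 0 of the 40, with a median slope of -0.076 log2 per mM, and the smallest adjusted p was 0.0591, for members and for all genes, while 38 of the 40 and 4879 of all 11967 had an unadjusted p under 0.05. With dose as ranks from 0 to 3, 36 of the 40 fell, beside 16.8% of all genes that fell and 18.3% that rose, with a median of -0.45 log2 per rank and adjusted p between 0.0149 and 0.0473. Without the 8.5 mM array 32 of the 40 fell per mM, beside 751 of all 11967 that fell and 1089 that rose. Without the 17 mM array 21 of the 40 fell, beside 422 of all 11967 that fell and 960 that rose. Without the 1.7 mM array, or without either sham tumour array, the slope was called in 0 of all genes.

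Other genes of the pathways were described at 17 mM in the same way, beside 10.7% of all genes that fell and 15.7% that rose. Of the 31 other replication factors 12 fell, led by Gmnn (-1.90), Cdc7 (-1.75), Atad5, which unloads the clamp (-1.45), and Rpa3, the small RPA subunit (-1.41). Of the deoxynucleotide enzymes Dck (-1.17), Samhd1 (-0.72) and Dtymk, the thymidylate kinase (-0.72), fell and none rose among 8. Tk2 and Rrm2b, which were lower in sham tumours than in healthy bladder, had values of 0.54 (limma adjusted p = 0.0559) and 0.38 (limma adjusted p = 0.113) at 17 mM. In purine and pyrimidine synthesis 6 of 15 fell, led by Gart (-1.01), Pfas (-0.94), Gmps (-0.91) and Adss (-0.80), and Ctps2 rose by 0.65. Of the E2F and G1/S regulators 7 of 21 fell, led by E2f8 (-1.73), Ccna2 (-1.30), Myc (-1.09) and E2f1 (-1.08), and none rose. Markers moved with these counts at 17 mM: 6 of 6 urothelial, 4 of 4 smooth muscle, 4 of 4 fibroblast and 4 of 4 tested liver markers rose, 3 of 3 neutrophil markers fell, and 0 of 4 macrophage markers were called. Marker means by array are given in the bar plot, and their part in the values of the replication genes was not tested.

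**Figure D4:**
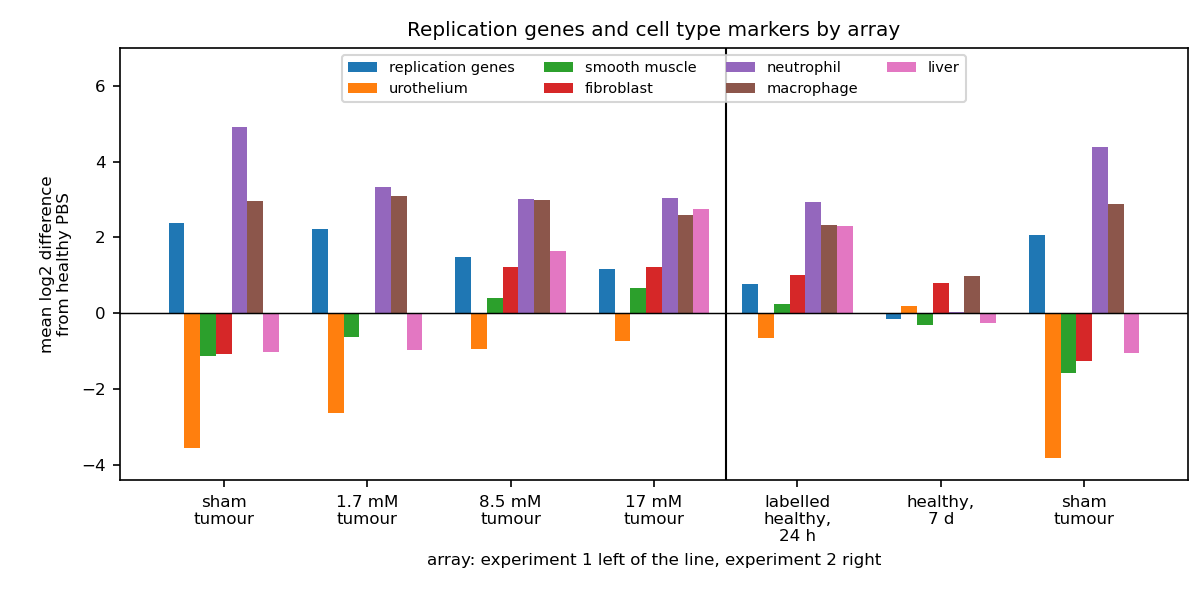
Mean log2 difference from the healthy PBS array of the same experiment (bars from 0) for the replication genes and 6 lists of cell type markers, on each of the 7 other arrays. From sham to 17 mM the replication and neutrophil bars are lower at 17 mM than in sham, the urothelial bar comes nearer to 0 and the liver bar is higher, and the bars of the array labelled healthy 24 h have the same signs as those of the 17 mM tumour.

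Tumours that had received 17 mM still read above healthy bladder for 38 of 40 genes in experiment 1, beside 50% of all genes. Of these 7 rose by the test against healthy bladder, beside 2.72% of all genes that rose, 0.426% that fell and 3.15% called in either direction, namely Rrm2 (3.69), Tk1 (3.03), Uhrf1 (2.80), Mcm5 (1.78), Mcm6 (1.55), Mcm3 (1.40) and Dut (1.37). Rrm2 read 8.27 log2 in the 17 mM tumour, against 4.50 in the healthy bladder of the same experiment (SE 0.17, limma adjusted p = 0.0358). The median of the 40 was 0.99, and the lowest value was -0.18, for Orc1. Orc1 and Pold1 were the genes whose 17 mM array did not exceed the healthy array. The comparisons of 17 mM with sham tumours and with healthy bladders share the 17 mM array, and those with sham share the sham arrays.

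On a linear scale the members with a large tumour excess kept a similar part of it. For the 34 members at least 2-fold higher in the tumours of both experiments, the signal above healthy was divided by that of the sham tumour of the same experiment. The rule thus uses the excess that the share divides by. Members it left out had 17 mM shares of 180% (Orc1), 56.2% (Pola2), 30.4% (Rpa1), 19.3% (Pold2), 2.2% (Rfc3) and -4.25% (Pold1). The median share was 83.4% at 1.7 mM, 39.0% at 8.5 mM and 25.6% at 17 mM, beside 82%, 41.7% and 29.4% for all 1462 genes passing the same rule. Between the quartiles the share at 17 mM ran from 22.6% to 27.9% in members and from 21.3% to 40.2% in all such genes. Cdc45 kept the least at 17 mM (17.7%) and Exo1 the most (36.5%), and Rrm2 at 1.7 mM stood at 177% of the sham tumour. The members' median share at each dose lay within the quartiles of all such genes.

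**Figure D5:**
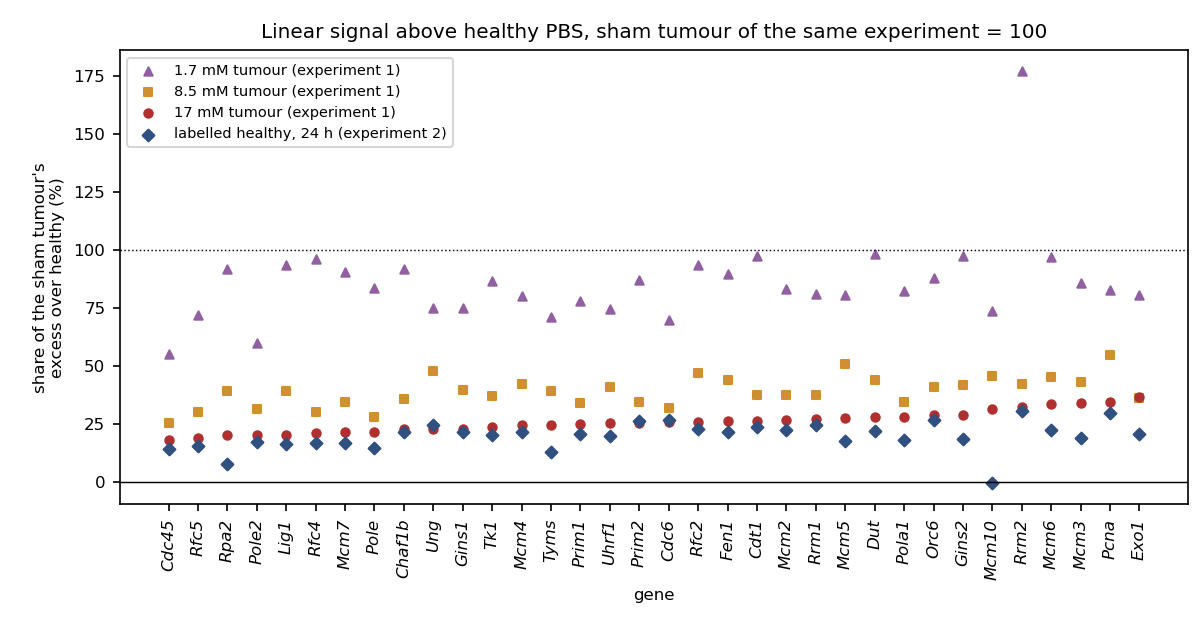
Linear signal above healthy PBS as a percentage of that of the sham tumour of the same experiment, for the 34 replication genes at least 2-fold higher in both sham tumours, ordered by the 17 mM share, 1 array per symbol. The 17 mM shares lie between 17.7% and 36.5%, the 24 h shares mostly just below them, and the 1.7 mM share of Rrm2 stands at 177%.

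The array labelled healthy, 24 h after 17 mM, read above the healthy PBS bladder of its experiment for most replication genes. It lay between the healthy and the sham tumour array in 37 of 40 genes, beside 30.4% of all genes, with Mcm10, Orc1 and Rfc3 as exceptions. Limma called 0 of the 40 and 0 of all genes against healthy bladders, while 24 of the 40 and 2498 of all 11967 had an unadjusted p under 0.05, and the median of the 40 was 0.79. After joint quantile normalization of all arrays 13 of the 40 rose, beside 654 of all 11968 genes that rose and 134 that fell. Rrm2 read 7.34 log2 on the 24 h array, against 3.94 in the healthy bladder, and the fitted difference was 3.48 (SE 0.17, limma adjusted p = 0.0559). Tk1 read 6.42, against 3.72 in the healthy bladder, with a difference of 2.75 (SE 0.14, limma adjusted p = 0.0559), and Uhrf1 read 6.04, against 3.82. Those 3 were the highest, while Orc1 was lowest at -0.32.

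The other genes shown in full were nearer to healthy bladder on the 24 h array. Mcm2 read 7.12 log2 (healthy 6.46), Mcm5 read 5.33 (healthy 3.98) and Mcm10 read 5.01 (healthy 5.03). Cdc6 read 5.56 (healthy 4.43), Cdc45 read 4.59 (healthy 3.82) and Gins1 read 5.24 (healthy 4.88). Pole2 read 5.28 (healthy 3.92), Pcna read 9.81 (healthy 9.38) and Rfc4 read 5.90 (healthy 5.31). Mcm10 alone of these 9 did not exceed the healthy array. Against sham tumours, in a contrast added after values were seen, 31 of the 40 fell, beside 13.6% of all genes, with a median of -1.42. Fewer fell, in members and over all genes, when the sham tumour of experiment 1 and the block were left out. The effect of 17 mM in tumours minus the effect on the 24 h array was a contrast also added later, between unlike schedules. It was negative by the test in 24 of the 40, beside 8.61% of all genes, with a median of -1.95. Without the block it was negative in 5, beside 272 of all 11967, and with a PBS array left out too both counts were also lower than in the main fit. That contrast takes away the sham tumour minus healthy difference, so it is no result separate from that one. The 34 members stood at a median of 20.5% of the tumour excess of experiment 2 on the 24 h array, beside 22.0% for the 1462 genes, and Mcm10 at -0.8%. Across the 34 members the 24 h share and the 17 mM share, which come from different experiments and no common array, had a Pearson r of 0.318 and a Spearman rho of 0.483. For the 1462 genes these were higher, at 0.866 and 0.778, and all are given as a description across genes. The neutrophil, macrophage and liver markers on this array were also above the healthy array, as given at the start.

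At 7 d after 17 mM, no replication gene of the healthy bladder was called against the PBS controls. Limma called 0 of the 40 and 0 of all genes, while 7 of the 40, with 3 of 7 MCM genes among them, and 1093 of all 11967 had an unadjusted p under 0.05. The median of the 40 was -0.09, beside -0.015 over all genes. When the healthy PBS array of experiment 2 and the block were left out, it was -0.59, beside -0.5 over all genes. The array lay below the healthy PBS array in 26 of 40 genes, beside 55.4% of all genes. Rrm2 had the highest value, reading 4.65 log2 at 7 d, against 3.94 in the PBS bladder (difference 0.79, SE 0.17, limma adjusted p = 0.508), and Rfc4 the lowest, reading 4.56, against 5.31 in the PBS bladder (difference -0.81, SE 0.14, limma adjusted p = 0.496). The 7 MCM genes all had values below 0, between -0.58 for Mcm4 and -0.14 for Mcm10. Tk1 read 3.92, against 3.72 in the PBS bladder, Uhrf1 read 3.82 on both arrays, and Cdc45 read 3.85, against 3.82 in the PBS bladder. The 34 members stood at a median of -3.79% of the tumour excess. Their shares ran from -21.5% for Pcna to 13.3% for Tyms.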

How the data were processed

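The deposited values are log2 signals of 45077 probe sets on 9 Affymetrix arrays, which the authors normalized with RMA, and Transcriptome Analysis Console 4.0.1.36 is the software named in the submitters' processing notes. Total RNA from pulverised frozen bladder was amplified and labelled with a 3' IVT kit, per the labels. Which genome build stands behind the annotation is not given in the sources used here. Precision is limited by the number of arrays.

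Probe sets with 1 gene name (28898 of 45077, while 551 had several and 15628 none) were used, 28689 of them with symbols updated through the Entrez number, and the probe set with the highest mean stood for its gene. Genes below 4.16 log2, the lowest 30% by mean, were left out. Median signals were 4.42 to 4.45 in experiment 1 and 4.20 to 4.24 in experiment 2, and sorted values deviated by 0.022 within and 0.329 between experiments, so the experiment number of the labels was a block. Same-numbered PBS arrays deviated together (correlation 0.647), which pairs them by experiment. Differences were fitted with limma 3.58.1 in R 4.3.3 (lmFit and eBayes) to 7 group means with the block, with 1 residual and 2.24 prior degrees of freedom, and the dose slope to the 5 tumour arrays. P-values were adjusted by Benjamini-Hochberg over 11967 genes. The procedure was tested on simulated data. Figures and motif counts used matplotlib 3.10.9, pandas 2.3.3 and numpy 2.4.6 under Python 3.11.15.

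All 40 measured genes may be named. Values on the arrays are given in full for 12 genes, for genes not called in sham tumours and for the extremes of each comparison, and of each further list up to 4 called genes with the largest differences in each direction were named. Tk2, Rrm2b and the probe sets of Orc1 and Prim2 were described further after their values were seen. The members, lists and tests were chosen with earlier results of these data known. Alternatives were no block, joint quantile normalization, other filters, a variance trend, a 2-fold requirement, the mean of probe sets, dose as rank and leaving out single arrays.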

Additional observations from a re-analysis of the deposited data

Results flagged for a closer look

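The effect of 17 mM in tumours (against sham) and the effect at 24 h on the array labelled healthy (against healthy) differed by the test of the difference itself in 24 of the 40 genes, all lower in the tumour effect. This contrast was added after values were seen, the treatment schedules differ (5 instillations against sampling at 24 h), and each effect rests on 1 treated array. The array labelled healthy 24 h read unlike the healthy PBS bladder in cell type markers. Whether its label is right was not tested, and the contrast has the meaning given here only if it is. All genes called in either direction were 19.3%, and 8.61% were lower. The contrast takes away the sham tumour minus healthy difference, so it is no result separate from that one. That difference was 5.18 for Rrm2, 4.94 for Tk1, 4.52 for Uhrf1 and 3.78 for Pole2. The contrast itself, in log2 units, was -4.97 for Rrm2, -4.65 for Tk1, -4.05 for Uhrf1 and -3.40 for Pole2. In the helicase group it was -2.87 for Mcm5, -2.42 for Mcm6, -2.37 for Mcm7, -2.12 for Mcm4, -2.04 for Mcm3 and -1.85 for Mcm2. The loaders Cdc6 and Cdt1 had -2.61 and -2.25, Orc6 had -1.70, Cdc45 had -2.61 and Gins2 had -2.05. Among polymerases and finishing enzymes Pole had -2.25, Pola1 had -1.89, Rfc4 had -1.78, Lig1 had -1.73, Rfc2 had -1.34 and Rfc5 had -1.30. Among nucleotide enzymes Dut had -2.60, Rrm1 had -1.73 and Tyms had -1.26. Every limma adjusted p of these 24 lay between 0.0262 and 0.0432, and 5 of the 40 passed without the block, beside 272 of all 11967 that were lower. The array labelled healthy 24 h read above healthy for these genes and for neutrophil and macrophage markers, and the part of those markers in the contrast was not tested.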

How the results depend on the processing

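In sham tumours against healthy bladders, 38 genes rose, and counts stayed within 1.5 times of that under all alternatives run (26 to 36 when single PBS arrays were left out with the block), while the median of 2.21 became 1.74 with the mean of probe sets and 1.83 to 2.65 with single arrays left out. The calls in treated tumours depended most on the experiment block. Without the replicate block, 2 genes fell at 17 mM (28 with it), 0 at 8.5 mM (19 with it), 3 by the dose slope per mM (0 with it) and 5 in the contrast of effects (24 with it), whose median was -1.38 (-1.95 with it). Over all 11967 genes, 121 fell at 17 mM without the block (1275 with it) and 41 at 8.5 mM (569 with it). By the slope 141 fell (0 with it), and in the contrast of effects 272 (1030 with it). At both doses calls over all genes also dropped with single PBS arrays left out. PBS arrays could be left out only together with the block, since no residual degree of freedom remains otherwise. With single PBS arrays left out, 0 to 4 genes fell at 17 mM (median -1.26 to -0.52) and 0 at 8.5 mM (median -0.92 to -0.21). The values nearest 0 came without the sham tumour of experiment 1, which sets treated arrays of experiment 1 against a sham array normalized apart from them, and there Mcm5 at 8.5 mM reversed to 0.40 (limma adjusted p = 0.813, main value -0.84), Tyms at 8.5 mM to 0.24, Pold2 at 17 mM to 0.39 and Tyms in the contrast of effects to 0.16 (0.13 without the healthy array of experiment 2). The 1.7 mM median of -0.10 ranged from -0.18 to 0.55, and limma called 0 genes in each case. At 8.5 mM, 12 genes fell with no filter on low values and 8 with a 2-fold requirement. In the 17 mM tumour against healthy bladder, 7 genes rose, 22 after joint quantile normalization, and 5 to 11 with single arrays left out (median 0.99 to 1.44). On the array labelled healthy 24 h, 0 rose, but 2 without the block, 13 after joint quantile normalization, 2 with the lowest 50% left out, 1 with the mean of probe sets, 4 with a variance trend, and 1 to 3 with single arrays left out (median 0.22 to 0.67). Against sham tumours 7 to 30 genes fell on that array with single arrays left out (31 in all, median -2.13 to -1.32), with 7 when the sham tumour of experiment 1 was left out. The 7 d median ran from -0.59 to -0.089, and that of the contrast of effects from -1.82 to -0.98 with 4 to 9 genes falling. Dose as rank gave 36 genes that fell, and single tumour arrays left out gave 0 to 32 per mM (median slope -0.11 to -0.069). The array labelled healthy 24 h has a group mean of its own, so leaving it out cannot move the other comparisons, and their counts of 38, 28, 19 and 7 are no test of stability. Counts over all genes moved with those of the members against healthy bladder. In the 17 mM tumour 326 of 11967 rose in the main fit and 1183 of 11968 after joint quantile normalization. On the array labelled healthy 24 h, 0 of 11967 rose in the main fit, 122 without the block and 654 of 11968 after joint quantile normalization. With the lowest 50% left out 121 of 8548 rose there, with the mean of probe sets 95 of 11968, and with a variance trend 198 of 11967. All-gene medians shifted too. Without the sham tumour of experiment 1 they were 0.44 at 17 mM, 0.45 at 8.5 mM and 0.53 at 1.7 mM, against -0.045, -0.0425 and 0.005 in the main fit. The cause of these shifts was not tested. Array number and a spread taken from 4 PBS arrays limit all p-values.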

Other observations

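The probe sets of a gene did not always agree, in weak members and in strong ones. The 40 genes had 72 probe sets, and 24 genes had more than 1. Rrm2's other probe set was higher in sham tumours by 4.54 and 3.35 log2 within the experiments and differed by -1.53 at 17 mM, beside 5.34, 5.02 and -1.57 for the set used. The sets thus differ most in the tumour minus healthy difference of experiment 2. Rfc3's other probe set showed 0.94 and 0.80 in tumours, like the 0.71 and 0.58 of the set used, and Rpa1's showed 0.56 and 0.35, against 0.39 and 0.24. The other probe sets of Mcm10 and Pola2, all under the filter level, showed tumour differences between -0.20 and 0.57. Sets under that level were also nearly flat in strong members, such as Mcm5 (0.44 and -0.25), Pole2 (0.09 and 0.33) and Cdt1 (-0.08 and -0.12). Every further probe set above the filter level was higher in sham tumours in both experiments. With the mean of probe sets Mcm5 and Tyms were not called at 17 mM, nor Mcm5, Rrm2, Tyms and Dut at 8.5 mM.

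The genes with and without E2F letters in the RefSeq promoter had overlapping differences. The 13 genes with the letters had a median log2 difference of 2.52 in sham tumours against healthy bladders and of -1.23 at 17 mM against sham, beside 1.94 and -1.17 in the 20 genes without them. Orc1 was the lowest of the genes with the letters (-0.21) and Uhrf1 the highest (4.52), while Rrm2, the highest of all, had none in the 300 bases searched. These are descriptions with no test.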
